A study of Mus musculus with 6 samples.

Results

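The genes of the cytosolic ribosome were followed across 6 Affymetrix MOE430_2 arrays. The members are all genes whose array symbol has the form of a ribosomal protein of the large subunit (Rpl or Rplp and a number) or the small subunit (Rps and a number), measured by a probe set that names exactly 1 gene. This gave 48 genes, 26 of the large and 22 of the small subunit, of 18193 genes on the array. Where a gene had several such probe sets, the one with the highest mean signal stands for it.

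Marrow was taken from adult wild-type mice of the C57BL/6 strain, without treatment, and its cells were sorted directly as negative for CD45, TER119 and CD31, surface proteins of leukocytes, erythroid cells and endothelial cells. Within that gate, 3 arrays measured Ebf2-positive and 3 measured Ebf2-negative cells, Ebf2 being a transcription factor of immature mesenchymal cells. RNA from 1000 or 2000 cells was amplified for each array, and the labels do not give the animals' exact age, how Ebf2 was detected, or whether replicates came from separate animals. The p-values therefore refer to the variation among these 6 samples alone, part or all of which may be technical.

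The cytosolic ribosome is built from ribosomal RNA and a fixed set of proteins, most of them needed in equal numbers in every particle. The large subunit forms the peptide bond and the small subunit reads the messenger RNA. The proteins are made in the cytoplasm, carried into the nucleolus and joined there to ribosomal RNA. Their messenger RNAs are among the most abundant of growing cells and typically begin with a run of pyrimidines at the cap, the 5' terminal oligopyrimidine tract, through which growth signals set their translation. In bone marrow these genes are known above all through Diamond-Blackfan anaemia, in which loss of a single copy of a ribosomal protein gene impairs the making of red cells.

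The start sites of 8 genes are shown because they include the 4 members whose difference below was called whichever array was left out (Rpl4, Rpl6, Rpl13a and Rpl22), and, for comparison, 2 small-subunit members and 2 paralogues that were also called. Each window holds 15 bases before and 15 bases from the RefSeq start onward (build GRCm38.p6), and capitals mark its longest run of C or T.
Rpl4, chr9:64173372-64173401, plus strand: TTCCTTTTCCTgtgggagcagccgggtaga
Rpl6, chr5:121204486-121204515, plus strand: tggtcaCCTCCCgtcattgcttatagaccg
Rpl13a, chr7:45128731-45128760, minus strand: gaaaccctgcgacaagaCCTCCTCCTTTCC
Rpl22, chr4:152325711-152325740, plus strand: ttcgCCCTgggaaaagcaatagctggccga
Rps6, chr4:86857353-86857382, minus strand: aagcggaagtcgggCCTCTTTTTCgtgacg
Rps10, chr17:27635230-27635259, minus strand: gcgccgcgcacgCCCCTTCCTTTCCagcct
Rpl7l1, chr17:46782642-46782671, minus strand: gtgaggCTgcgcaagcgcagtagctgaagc
Rpl22l1, chr3:28805493-28805522, plus strand: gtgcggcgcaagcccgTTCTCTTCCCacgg

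Rps6 and Rps10 carry runs of 10 and 13 pyrimidines across the annotated start. The Rpl22 window, the first of 2 RefSeq start entries for that gene, has no run longer than 4 and the Rpl7l1 window none longer than 2. The RefSeq table held 50 start entries for 42 of the 48 members. A run of at least 7 pyrimidines lay within this window on the sense strand in 48% of those entries, against 18.6% of all 32851 entries in the table. On the other strand the shares were 6% and 20.3%. Among the 28 entries of members called lower in Ebf2-positive cells the sense share was 46.4% and the other-strand share 10.7%. Among the 22 entries of members not called they were 50% and 0%. The difference between called and uncalled members was not tested. The motif CCGGAAG, a binding sequence of ETS-family factors, was found on either strand of the 300 bases around the start in 40% of member entries and 8.86% of all entries. It stood in 32.1% of entries of called and 50% of entries of uncalled members. The motif TATAAA was found in 12% and 13.6% of member and all entries. The motif AAGATGGC, a binding sequence of YY1, was found in 8% and 2.75%. Each motif was searched on both strands by itself, with no allowance for overlap between motifs, and a share describes letters in a window, not sites in use.

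Ebf2 followed the sort. Its log2 RMA signal was 8.33 ± 0.41 (SD, n = 3) in the Ebf2-positive cells, against 3.66 ± 0.49 (SD, n = 3) in the others. Lists of marker genes show that the groups differ in more than Ebf2. All 14 measured erythroid markers were lower in Ebf2-positive cells, where the intensities summed over the list ran from 433 to 971, against 14715 to 16566 in Ebf2-negative cells. All 11 cell division markers were lower too, with sums of 172 to 781 against 7362 to 9212. All 10 fibroblast and pericyte markers were higher, with sums of 39734 to 44785 against 1362 to 2469. Of the leukocyte markers 1 of 10 was higher and 1 lower, of the endothelial markers 1 of 6 was higher, and of the megakaryocyte markers 4 of 5 were lower. None of these markers was under a log2 signal of 4 on all 6 arrays. Their part in the ribosomal protein differences was not tested, and in bulk samples fewer cells of a type and less RNA per cell cannot be told apart.

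Ribosomal protein genes were lower in Ebf2-positive cells in both subunits. Differences are log2 values, the Ebf2-positive mean less the Ebf2-negative mean, and a gene is called where its adjusted p over all 18193 genes is under 0.05 (limma with Benjamini-Hochberg adjustment). Of the 48 genes, 24 were called lower and 0 higher, while 13.6% of all genes tested were called lower and 10.8% higher. At an unadjusted p under 0.05 the counts were 31 lower and 0 higher, against 3593 lower and 2951 higher of all 18193 genes. The difference was negative for 42 of the 48, with a median of -0.90, or 1.86-fold, against a median of 0.07 over all genes. The groups did not overlap, with every Ebf2-positive array lower, for 34 of the 48, against 21.2% of all genes. The count of calls rested on few arrays: it was 4 without Ebf2-negative replicate 3, when 7.67% of all genes were called lower, and 8 without Ebf2-negative replicate 2, when 9.11% were. A further quantile normalization left 9 and centring on the 75th percentile 15, with medians of -0.58 and -0.78.

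**Figure D1:**
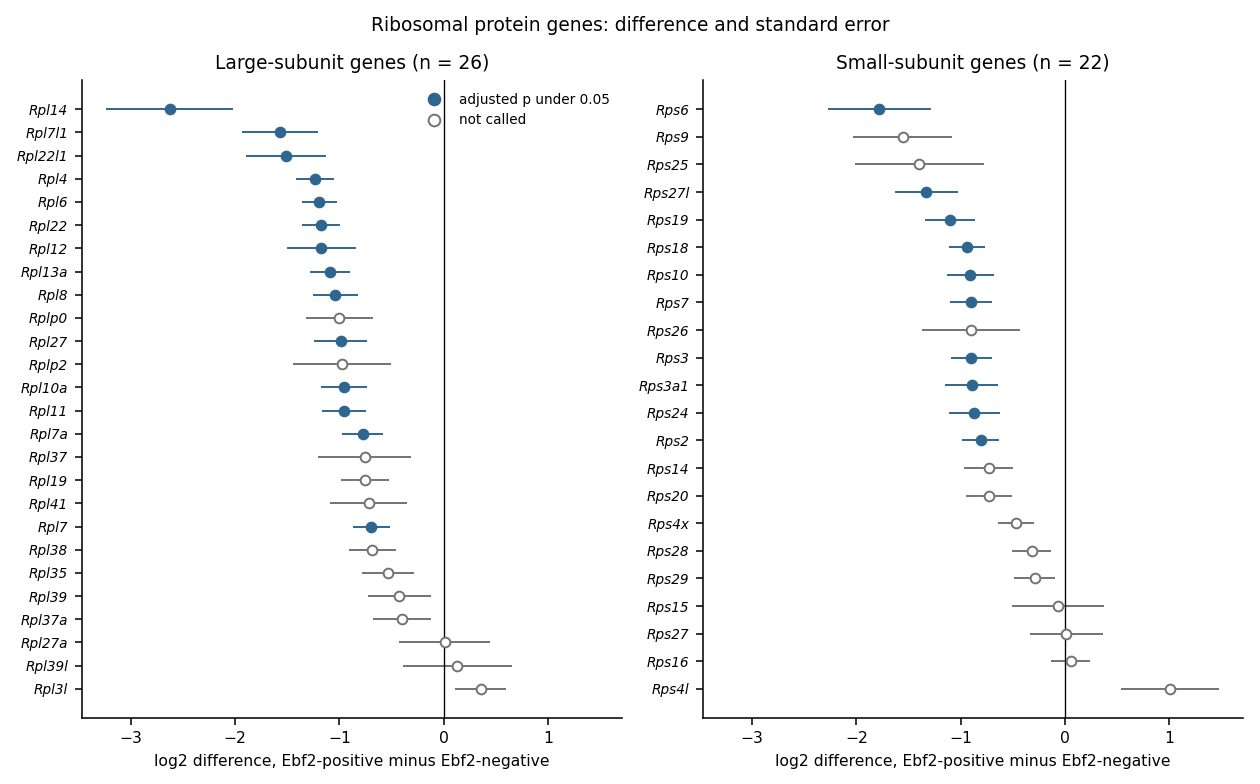
Log2 difference (Ebf2-positive minus Ebf2-negative) of each ribosomal protein gene, with its standard error from limma, large-subunit genes on the left and small-subunit genes on the right. Filled points are genes with an adjusted p under 0.05. All 24 called genes lie to the left of 0, those other than Rpl14 and Rps6 between -1.57 and -0.69, and Rps4l lies farthest to the right at 1.01. Rps28 and Rps29 move to the right of 0 after a further quantile normalization, and all 6 genes to the right of 0 (Rps4l, Rpl3l, Rpl39l, Rps16, Rps27 and Rpl27a) move to the left of it after centring on the poly-A controls.

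Most members lie among the brightest genes of the array, and bright genes were called more often than all genes in both directions. A mean log2 signal of 10 or more, a limit chosen after the data were seen, was reached by 32 of the 48 members and 457 other genes. All 32 had a negative difference and 18 (56.2%) were called lower, with a median of -0.90. Over all 489 genes of this brightness, members included, 36.2% were called lower and 17.2% higher. Of the 457 others, 34.8% were called lower and 18.4% higher, with a median of -0.44. The bright members were more alike than other bright genes. The middle 50% of their differences lay between -0.98 and -0.71, and that of the other bright genes between -1.10 and 0.45. This difference in spread was not tested.

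The 48 members on each array showed the same order as the single genes, and a spread within the Ebf2-negative group. The summed intensity of the members made up 3.70%, 3.72% and 3.90% of that of all genes on Ebf2-positive replicates 1, 2 and 3. It made up 5.10%, 6.29% and 6.66% on Ebf2-negative replicates 1, 2 and 3. The groups did not overlap, and Ebf2-negative replicate 1 stood between the Ebf2-positive arrays and the other two of its group. Ebf2-negative replicate 1 was the lowest of its group for 34 members, and Ebf2-positive replicate 1 the lowest of its group for 26. The same counts over all genes are not given here. The median gap of Ebf2-negative replicate 1 below the mean of replicates 2 and 3 was 0.30 for members and 0.06 over all genes. For 6 members Ebf2-negative replicate 1 was more than 1 below the mean of replicates 2 and 3 on the log2 scale, or 12.5% of members against 3.4% of all genes. The widest such gaps were those of Rps26 (1.58), Rps15 (1.48), Rpl37 (1.34) and Rpl41 (1.20), named after their values were seen. None of these 4 genes was called with all arrays, and Rps26 and Rpl41 were called once Ebf2-negative replicate 1 was left out. In all, 7 uncalled members gained a call on leaving out at least 1 array: Rpl19, Rpl38, Rpl41, Rps26 and Rps9 without Ebf2-negative replicate 1, Rplp0 and Rps9 without Ebf2-positive replicate 2, and Rps20 without Ebf2-positive replicate 3.

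**Figure D2:**
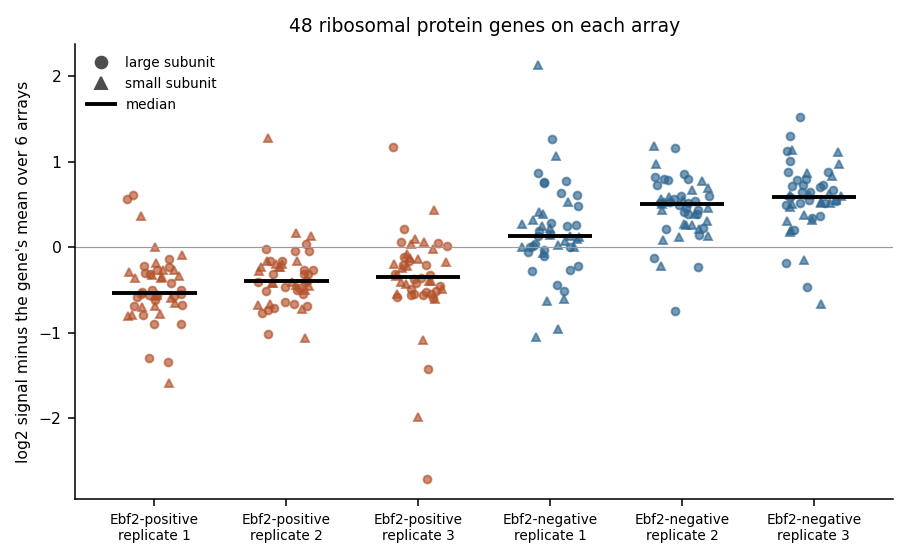
Log2 signal of the 48 ribosomal protein genes on each array, each gene relative to its own mean over the 6 arrays. Circles are large-subunit genes, triangles small-subunit genes, and black lines the median of the 48. The medians of the 3 Ebf2-positive arrays lie below 0 and those of the 3 Ebf2-negative arrays above it, with Ebf2-negative replicate 1 the nearest to 0. The height of an array depends on the scaling between arrays.

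In the large subunit, 14 of 26 genes were lower in Ebf2-positive cells, 0 were higher and 12 were not called, with a median difference of -0.96. Of all genes, 13.6% were called lower and 10.8% higher. Rpl4, Rpl6, Rpl13a and Rpl22 kept their call without any single array and were the only 4 of the 24 called members to do so. Rpl13a missed the threshold after a further quantile normalization (adjusted p = 0.0502). Rpl22 was singled out after its values were seen. Without Ebf2-negative replicate 3, only these 4 were called in the subunit.

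Rpl4, a protein whose long loop lines the exit tunnel, was at 11.65, 11.50 and 11.61 on the Ebf2-positive arrays and at 12.69, 12.99 and 12.80 on the Ebf2-negative arrays. The gap between the groups was far wider than the spread within either, with a difference of -1.24 (SE 0.18, adjusted p = 0.00474). Rpl6, another protein of the large subunit, stood at 11.55, 11.44 and 11.52 against 12.73, 12.71 and 12.65. Its difference of -1.19 (SE 0.17), or 2.29-fold, had the smallest adjusted p of all members at 0.00403.

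Rpl13a, which also leaves the ribosome to silence inflammatory messenger RNAs, was at 12.04 on every Ebf2-positive array and at 13.36, 13.08 and 12.95 on the Ebf2-negative arrays (-1.09, SE 0.19, adjusted p = 0.00835). The 3 other probe sets of Rpl13a were also called lower, with differences of -1.44, -1.22 and -2.83. Rpl22, a protein not needed for ribosome function in general but needed for the development of alpha-beta T cells, was at 11.86, 11.71 and 11.98 against 13.05, 12.96 and 13.08 (-1.18, SE 0.18, adjusted p = 0.00515). Another Rpl22 probe set was called lower at -1.31, and the dimmest of its 3 differed by -0.11 and was not called.

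The largest difference of any member was that of Rpl14. It was at 6.99, 6.20 and 4.51 in Ebf2-positive cells and at 8.48, 8.37 and 8.74 in Ebf2-negative cells (-2.63, SE 0.61, adjusted p = 0.0228). The size varied mainly through the Ebf2-positive arrays, and the call was lost without any 1 of the Ebf2-negative arrays (adjusted p up to 0.0831). This was the only probe set naming Rpl14 alone. It was dim for a member, with a mean signal of 7.22 against a median of 11.73 over the members, and its values describe that probe set only. The middle 50% of differences lay between -1.52 and 0.02 for members under a signal of 10. For brighter members it lay between -0.98 and -0.71. Rpl10a, the protein of the L1 stalk, by which spent transfer RNA leaves, was at 12.05, 12.15 and 12.35 against 12.82, 13.23 and 13.38 (-0.96, SE 0.22, adjusted p = 0.0231). The groups did not overlap, but the call was lost after a further quantile normalization (0.0829) and without Ebf2-positive replicate 1, Ebf2-positive replicate 2, Ebf2-negative replicate 2 or Ebf2-negative replicate 3 (up to 0.0935). Rpl7 was at 12.28, 12.20 and 12.03 against 12.80, 12.93 and 12.87, a smaller but separate gap (-0.69, SE 0.18, adjusted p = 0.0324). Its call was lost without any single array other than Ebf2-positive replicate 1 (up to 0.113), and after a further quantile normalization (-0.31, adjusted p = 0.332), centring on the 75th percentile (0.095) or leaving out dim genes (0.0729). With all arrays, the other probe sets of Rpl7 were called lower, at -0.94 and -0.70.

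The stalk of the large subunit recruits the translation factors that split GTP, and it is formed by Rplp0 with the acidic proteins Rplp1 and Rplp2. Rplp0 was at 11.35, 12.20 and 11.69 in Ebf2-positive and 12.26, 13.07 and 12.92 in Ebf2-negative cells. The groups did not overlap, but the highest Ebf2-positive and the lowest Ebf2-negative array were close, and the difference of -1.0 (SE 0.32) was not called (adjusted p = 0.0682). It was called without Ebf2-positive replicate 2 (adjusted p = 0.0423), with array weights (0.0472) and with a trended, robust variance (0.0384). Rplp2 was at 10.60, 11.78 and 11.99 against 11.72, 12.75 and 12.83, so that the groups overlapped (-0.97, SE 0.47, adjusted p = 0.193). Both of its replicate 1 arrays were about 1 lower than the rest of their groups. In a fit with the replicate number as a block, given in the closing section, Rplp0 and Rplp2 were both called. The labels state no pairing of the replicates. Rplp1 was not analysed here.

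Rpl11 joins Rpl5 and the 5S ribosomal RNA in a particle that, when assembly fails, binds Mdm2 and stabilises p53. It was at 10.64, 10.74 and 10.62 in Ebf2-positive and 11.39, 11.53 and 11.94 in Ebf2-negative cells (-0.96, SE 0.21, adjusted p = 0.0199). The Ebf2-positive arrays lay close together and the Ebf2-negative ones farther apart. The call was lost without Ebf2-negative replicate 2 or 3 (adjusted p of 0.0568 and 0.0731). Rpl5 was not analysed here. The remaining called members of the subunit were Rpl7a, Rpl8, Rpl12 and Rpl27.

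In the small subunit, 10 of 22 genes were lower, 0 were higher and 12 were not called, with a median difference of -0.88. Of all genes, 13.6% were called lower and 10.8% higher. The groups did not overlap, with Ebf2-positive cells lower, for 16 of the 22, against 21.2% of all genes. At an unadjusted p under 0.05 (limma), 14 of the 22 were lower with all arrays, against 3593 of all 18193 genes. The subunit lost all 10 calls without Ebf2-negative replicate 3 (limma; 10 genes were then lower at an unadjusted p under 0.05, against 14 with all arrays), when 7.67% of all genes were called lower. Without Ebf2-negative replicate 2 there were 2 calls, or 9.09% of the subunit against 9.11% of all genes. A further quantile normalization also left 2 calls, 9.09% against 11.2% of all genes, and centring on the 75th percentile left 5, or 22.7% against 12%. Under the first 3 of these settings the subunit's share was thus not above that of all genes.

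Rps19, the gene most often mutated in Diamond-Blackfan anaemia, was at 9.32, 9.67 and 9.72 in Ebf2-positive and at 10.35, 10.68 and 10.99 in Ebf2-negative cells. The groups were separate, with a difference of -1.10 (SE 0.24, 2.15-fold, adjusted p = 0.0186), which was not called without Ebf2-negative replicates 2 or 3 (adjusted p of 0.062 and 0.0725). Rps18, a protein of the small subunit's head, was at 12.30, 12.37 and 12.53 against 13.26, 13.38 and 13.37. Its difference of -0.94 (SE 0.18) had the smallest adjusted p of the subunit, 0.011, but one of 0.0538 both without Ebf2-negative replicate 3 and after a further quantile normalization. Its 2 other bright probe sets were called lower, at -1.10 and -1.07.

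Rps6, the ribosomal protein phosphorylated by S6 kinase on growth signals, was at 7.90, 7.23 and 5.91 in Ebf2-positive and 8.97, 8.68 and 8.74 in Ebf2-negative cells. The difference of -1.78 (SE 0.49, adjusted p = 0.0432) was the largest of the subunit and was lost without Ebf2-positive replicate 2 or any Ebf2-negative array (up to 0.131), and after a further quantile normalization (0.0858) or centring on the 75th percentile (0.0575). It was also lost for the mean of its probe sets (-0.81, adjusted p = 0.078) and when all 45037 probe sets were tested together (adjusted p = 0.0638). The Rps6 probe set used was dim for a member, with a mean signal of 7.90 against a median of 11.73 over the members. Rps10, a protein of the small subunit's head, was at 10.65, 10.79 and 10.81 against 11.28, 11.88 and 11.82 (-0.91, SE 0.23, adjusted p = 0.0302). The 5 other probe sets of Rps10 had differences of -0.22 to -0.70 and were not called, nor was the mean of its probe sets (-0.57, adjusted p = 0.129). Its call was lost without any single array other than Ebf2-negative replicate 1 (up to 0.117), and after centring on the 75th percentile (0.061).

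The 3 brightest small-subunit members, Rps2, Rps28 and Rps29, had differences smaller in size than the subunit's median of -0.88. Rps18 and Rps7, almost as bright at mean signals of 12.87 and 12.85, differed by -0.94 and -0.90. Rps2, which lies by the path of the messenger RNA, was at 12.72, 12.63 and 12.64 against 13.34, 13.63 and 13.45 (-0.81, SE 0.18, adjusted p = 0.0198), a call lost without Ebf2-negative replicates 2 or 3 (0.0786 and 0.0755), after a further quantile normalization (0.103) or after centring on the 75th percentile (0.0532). Rps28 was at 12.87, 13.00 and 13.15 against 13.16, 13.44 and 13.36, and Rps29 at 12.84, 12.88 and 13.17 against 13.11, 13.22 and 13.42. Neither difference was called (-0.32 and -0.29, adjusted p of 0.285 and 0.349), and after a further quantile normalization they became 0.018 and 0.036. The other probe sets of Rps28 differed by -0.38 and -0.43, and those of Rps29 by -0.61 and -0.51. None of them was called. Rps4x, the X-linked copy of a gene that in humans also has a Y-linked copy, was at 12.78, 12.82 and 12.85 against 13.19, 13.31 and 13.36. Its groups did not overlap, but the difference of -0.47 (SE 0.17) missed the threshold (adjusted p = 0.0985), which it passed with a trended, robust variance (0.0253). The remaining called members were Rps3, Rps3a1, Rps7 and Rps24.

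Of the 20 Diamond-Blackfan genes listed, 12 were measured as members, and 6 of these were lower and 0 higher, a share of 50% against 50% of all members. Their median difference was -0.88. Beside Rps19, Rpl11 and Rps10 they included Rpl27, which differed by -0.99 (adjusted p = 0.0341). The Rpl27 call was lost without replicate 2 or 3 of either group (adjusted p up to 0.112). Rps26, which lies at the exit of the messenger RNA channel, was at 10.19, 10.62 and 10.82 in Ebf2-positive and at 10.39, 11.97 and 11.97 in Ebf2-negative cells. Ebf2-negative replicate 1 fell among the Ebf2-positive arrays, and the difference of -0.90 (SE 0.47) was not called (adjusted p = 0.227), but it was without that array.

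The 6 measured paralogues, genes related to that of a canonical protein, divided into 3 that were lower in Ebf2-positive cells and 3 that were not called. Rpl7l1, whose product works in early assembly of the large subunit, was at 7.21, 8.09 and 6.68 against 8.88, 8.97 and 8.84 (-1.57, SE 0.36, adjusted p = 0.0233). Another Rpl7l1 probe set was called lower at -2.77, and the dimmest differed by -1.34 and was not called. Rpl22l1, the paralogue that Rpl22 protein represses and that acts in blood cell development, was at 7.90, 8.43 and 8.98 against 9.95, 9.41 and 10.50 (-1.51, SE 0.39, adjusted p = 0.0325). Rpl22 and Rpl22l1 were thus both lower in Ebf2-positive cells. Rps27l, a p53 target, was at 8.49, 7.76 and 8.21 against 9.13, 9.35 and 9.96 (-1.33, SE 0.31, adjusted p = 0.0227), and its 2 other probe sets were called lower, at -1.68 and -1.55.

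Each of these 3 paralogue calls was lost on leaving out certain single arrays. For Rpl7l1 these were Ebf2-positive replicate 1 and each Ebf2-negative array (adjusted p up to 0.0763). For Rpl22l1 the call held without replicate 3 of the positive or replicate 2 of the negative group and was lost without any other array (up to 0.107). For Rps27l the arrays were Ebf2-positive replicate 2 and the Ebf2-negative replicates 2 and 3 (up to 0.0736). A further quantile normalization also ended the calls of Rpl22l1 (0.0516) and Rps27l (0.0619).

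The other 3 paralogues had dimmer probe sets, and none was called. Rpl39l, best known from the testis, was at 5.28, 5.30 and 6.95 against 5.52, 6.31 and 5.31, so the groups overlapped (0.13, adjusted p = 0.879). Rpl3l, the form of skeletal and heart muscle, was at 3.50, 2.92 and 2.77 against 2.78, 2.65 and 2.70, all of them dim (0.36, adjusted p = 0.35). Rps4l was at 4.95, 5.86 and 4.44 against 3.53, 4.79 and 3.91, the largest positive difference of any member (1.01, SE 0.47, adjusted p = 0.18). After centring on the poly-A controls the differences of Rpl39l, Rpl3l and Rps4l were -1.66, -1.43 and -0.78.

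**Figure D3:**
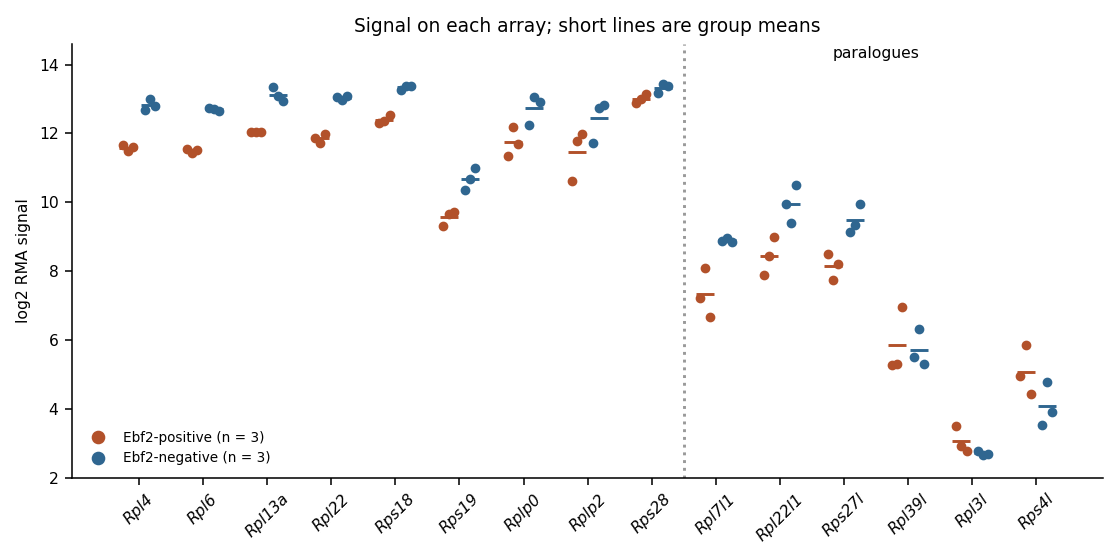
Log2 RMA signal of 15 ribosomal protein genes on each array, 3 Ebf2-positive (orange) and 3 Ebf2-negative (blue) arrays per gene, with short lines at the group means. Levels can be compared within a gene but not between genes. Rpl4, Rpl6, Rpl13a and Rpl22 show wide gaps between tight groups, Rplp2 overlaps, and of the 6 paralogues on the right only Rpl7l1, Rpl22l1 and Rps27l separate.

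Ribosomal protein genes have many processed pseudogenes with almost the same sequence, so probe sets were also compared within genes. The 48 genes have 103 single-gene probe sets, of which 34 were called lower and 0 higher when all probe sets were tested together, against 8.76% lower and 6.39% higher among 45037. No member had probe sets called in opposite directions. The 55 probe sets that did not represent their gene had a median difference of -0.70, and 14 of them were lower. Probe sets marked as able to bind other transcripts (suffix _x_at) had a median of -0.72. Without them and the _s_at sets 22 of the 43 members still measured were lower, all 22 among the 24 called above. The sets that remain differ by kind. Of 28 with the suffix _a_at, 17 were lower, with a median difference of -0.95 and a median signal of 11.17. Of 32 with no letter before _at, only 5 were lower and 19 had a negative difference. Their median difference was -0.32, and they were dim, with a median signal of 6.01. A further 110 probe sets name a ribosomal protein gene together with other genes, and they hold 29 ribosomal protein genes that no single-gene probe set measures. Of these 110, 35 were lower and 1 higher, with a median of -0.73. Of the members, 5 (Rps16, Rps27, Rpl39, Rpl3l and Rps4l) lay at or below the median signal of all genes, and none of these was called. Rps16, Rps27 and Rpl39 encode standard proteins of the ribosome, and their values describe those probe sets only.

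Other genes of ribosome production were also lower in Ebf2-positive cells, with larger median differences and dimmer probe sets. The median signal was 7.42 for assembly factors and 7.23 for RNA polymerase I genes, against 11.73 for the members. Among 72 factors of ribosome assembly, 55 were lower and 0 higher, with a median of -1.98, beside 13.6% lower and 10.8% higher among all genes. Wdr12, of a complex that processes large-subunit ribosomal RNA, was at 4.76 ± 0.80 (SD, n = 3) against 8.76 ± 0.15 (-4.00, adjusted p = 0.00132). Nop58, a core protein of the small nucleolar particles that methylate ribosomal RNA, differed by -3.97, and Rrp12 and Noc4l, which act in making the small subunit, by -3.33 and -3.28. Of 15 genes of RNA polymerase I, which transcribes ribosomal RNA, and its factors, 8 were lower and 0 higher, with a median of -1.29. They included the subunit genes Polr1e (-4.11, adjusted p = 0.0102), Polr1b (-2.71) and Polr1a (-2.30), and Twistnb (-1.69). Of the polymerase genes 3 were lower without Ebf2-negative replicate 1 or 3, and 5 without Ebf2-negative replicate 2. Without Ebf2-negative replicate 1, 2 or 3 the share of all genes called lower was 8.72%, 9.11% or 7.67%.

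Of 76 mitochondrial ribosomal protein genes, which serve the separate ribosome of mitochondria, 43 were lower and 0 higher, with a median of -1.35. Mrpl18 differed by -3.62 (adjusted p = 0.00817), Mrps22 by -3.45, Mrpl16 by -2.85 and Mrpl12 by -2.63. Without Ebf2-negative replicates 2 or 3 the counts were 19 and 20, when 9.11% and 7.67% of all genes were called lower. Of 29 initiation factor genes, 22 were lower and 0 higher, with a median of -1.37. They included Eif5b, which joins the subunits (-2.76), the eIF3 subunit gene Eif3m (-2.27), Eif1ax (-2.10) and the cap-binding Eif4e (-1.93). The count was 12 without Ebf2-negative replicate 3, when 7.67% of all genes were called lower.

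Of 10 genes listed under elongation and termination, not all of them factors of those steps, 9 were lower, with a median of -1.20. The count was 5 without Ebf2-negative replicate 1, when 8.72% of all genes were called lower. Eef1e1, a scaffold of the tRNA synthetase complex, differed by -2.73, the release factor genes Gspt1 and Etf1 by -2.19 and -1.71, and the ribosome recycling factor gene Abce1 by -1.81. Tpt1, whose messenger RNA also starts with a pyrimidine tract, was at 13.28 ± 0.15 against 13.39 ± 0.12 (-0.11, adjusted p = 0.724). Of 2 further genes of the cytosolic ribosome whose symbols fall outside the naming form, Rpsa was lower, at 12.38, 12.50 and 12.46 against 13.29, 13.62 and 13.55 (-1.04, adjusted p = 0.00895), and Fau was not called (-0.64, adjusted p = 0.284). At an unadjusted p under 0.05, 0 genes of these lists were higher, against 2951 of all 18193 genes. The median signal was 7.72 for the mitochondrial, 9.64 for the initiation and 11.16 for the elongation and termination list, against 11.73 for the members. Differences between the lists, and their relation to brightness, were not tested.

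**Figure D4:**
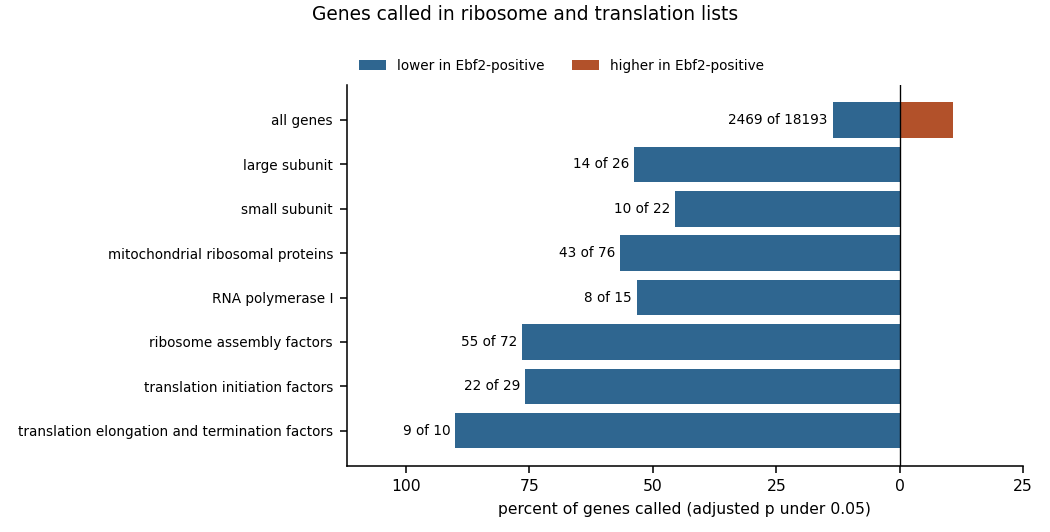
Percent of genes called lower (left, blue) or higher (right, orange) in Ebf2-positive cells at an adjusted p under 0.05, for all genes, both ribosomal subunits and 5 related lists. Labels give the genes called lower of those measured. The shares run from 45.5% of small-subunit genes to 90% of the genes listed under elongation and termination, beside 13.6% of all genes. That last list also holds genes with other roles. No ribosomal or related list has a gene called higher, while 10.8% of all genes were. With poly-A centring the share of all genes called lower was 72.4%.

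The scaling between arrays sets the size of these differences. Poly-A spike-in controls were brighter on the Ebf2-positive arrays, at 13.66 ± 0.13 against 11.87 ± 0.83, and centring on them moved every difference by -1.79. With that scaling, which moved the median of all genes to -1.72, 47 of the 48 members were called lower, as were 72.4% of all genes. Each difference here is thus relative to the other genes of the array and not to an amount of RNA per cell. Centring on the 75th percentile moved every difference by 0.12 and the median of all genes to 0.19.

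**Figure D5:**
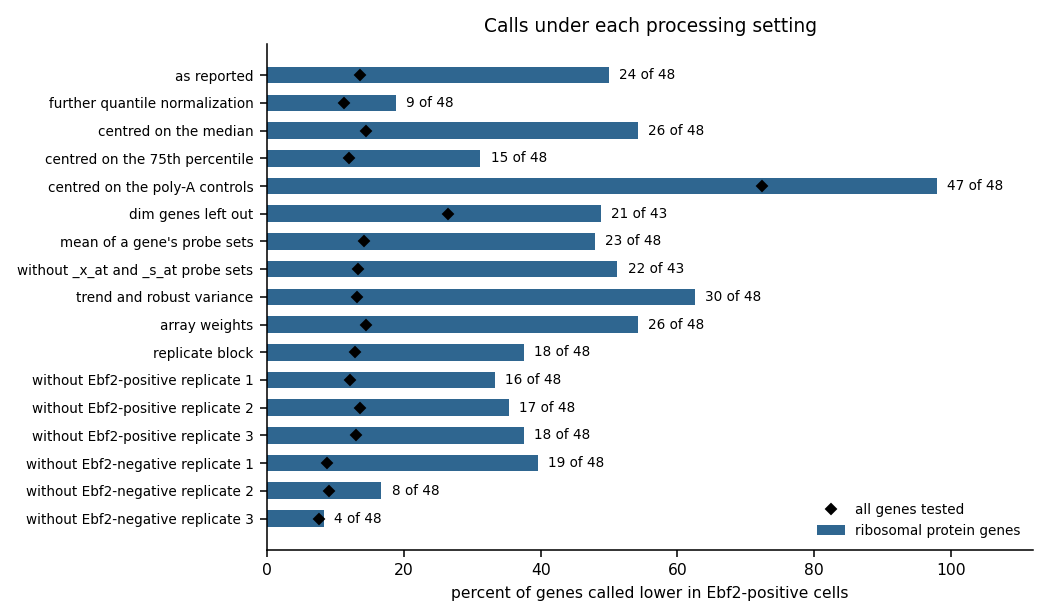
Percent of ribosomal protein genes (bars) and of all genes tested (diamonds) called lower in Ebf2-positive cells under each processing setting, with the number of members called of those measured. The share of the 48 members lies above that of all genes under each setting, most narrowly at 8.33% against 7.67% without Ebf2-negative replicate 3. For the small subunit alone, which is not drawn apart, it lies below under 3 settings: without Ebf2-negative replicate 2 or 3 and after a further quantile normalization.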

How the data were processed

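Intensity values were deposited by the authors for 45101 probe sets on 6 arrays, made with RMA per the submitters' processing notes, and are on a linear scale. The RMA version was not given in the sources used here. Such processing corrects background, normalizes between arrays and summarises each probe set, so differences in total RNA cannot be seen. Log2 was taken, and 64 control probe sets were left out. GEO's annotation names 1 gene for 34945 probe sets, several for 932 and none for 9160. All 48 members were found in the RefSeq table of GRCm38.p6.

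The comparison used limma 3.58.1 under R 4.3.3, a two-sided moderated fit with Benjamini-Hochberg adjustment over 18193 genes and a threshold of 0.05. With 3 arrays a group, precision is limited by their number. On simulated data with 18193 genes the fit called 5.97%, 56.7% and 84.8% of genes changed by 1, 2 and 4 on the log2 scale, with 8 false calls, fewer genes being changed there than in the data. The changed genes were drawn from all genes, so these shares are not the rates for the members.

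The members, lists, tests and alternatives were chosen with earlier results of these data known. Named members are the 5 called members of each subunit with the largest differences in each direction, the 3 brightest of each, all paralogues with Rps4x, and stalk and 5S particle genes; of other lists, up to 4 called genes. Others were named after their values were seen. Alternatives were other normalizations and centrings, a filter on dim genes, other choices of probe set, other variance models, array weights, the replicate block and leaving out each array. Figures used matplotlib 3.10.9 in Python 3.11.15.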

Additional observations from a re-analysis of the deposited data

How the results depend on the processing

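The median difference stayed negative in both subunits, and no member was called higher, under each alternative run. Counts called lower, 14 and 10 in the large and small subunit, became 7 and 2 after a further quantile normalization, 26 and 21 after centring on the poly-A controls (medians -2.74 and -2.67), and 10 and 5 after centring on the 75th percentile. On leaving out single arrays they ran from 4 to 11 and from 0 to 8, with medians of -1.09 to -0.78 and -0.90 to -0.76, and counts over all genes from 1294 to 1877 higher and 1396 to 2471 lower. Over all genes, poly-A centring gave 460 higher and 13163 lower with a median of -1.72, centring on the 75th percentile a median of 0.19, and leaving out dim genes one of -0.34. On leaving out single arrays the Rpl39l difference ran from -0.42 to 0.43 and was negative without replicate 3 of the positive (-0.42) or of the negative group (-0.07). With poly-A centring all 48 differences were negative, so that the 6 positive ones changed sign, among them Rpl39l (-1.66), Rpl3l (-1.43) and Rps4l (-0.78). Rps28 and Rps29 became positive after quantile normalization (0.018 and 0.036). The poly-A, 75th-percentile and dim-gene shifts follow from how those settings are built, and the cause of the other changes was not tested. Deviations from the group means correlated at 0.06, 0.11 and 0.03 between same-numbered samples. Each Ebf2-positive sample correlated best with its own number, but Ebf2-negative replicate 3 did so with Ebf2-positive replicate 1 (0.042 against 0.029), and the labels state no pairing, so the numbers were not taken as pairs. With the replicate block 11 and 7 genes were lower, 15 of them among the 24 called without it, and Rplp0 and Rplp2 were called (adjusted p of 0.036 and 0.0363). Among members with a mean signal of 10 or more, an alternative added after seeing the data, 10 and 8 were lower.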
